A study of Mus musculus with 12 samples.

Results

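The mRNAs of 10 mouse genes were followed through an anti-ORF1p immunoprecipitation: *Mov10*, *Zc3hav1*, *Adar*, *Samhd1*, *Trex1*, *Upf1*, *Pabpc1*, *Pabpc4*, *G3bp1* and *Ybx1*. They were chosen by name, as genes whose proteins are known to restrict LINE-1 (L1) retrotransposons or to accompany the L1 ribonucleoprotein particle (RNP), and all 10 were found among the 20981 genes of the data. All libraries came from testes of C57BL/6 *Mael*-/- mice of 3 months. TOTAL was RNA of the clarified testis extract, to which 10 mM EDTA had been added to take ribosomes apart. INPUT was RNA of pooled sucrose gradient fractions 5 to 8 of that extract, where ORF1p RNPs sediment. IP was the RNA pulled out of INPUT by beads that carried an anti-ORF1p antibody, and BO (beads only) was the RNA retained from INPUT by beads without an antibody. Each of the 4 groups had 3 libraries, 12 in all. No group had another genotype, BO beads carried no control IgG, and a whole testis extract mixes germ cells with somatic cells.

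L1 encodes ORF1p, a protein that coats L1 RNA, and ORF2p, an endonuclease and reverse transcriptase, and the RNA with both proteins forms the RNP that copies itself into the genome. MAEL takes part in the piRNA pathway that silences L1 in male germ cells, and germ cells that lack it accumulate L1 RNA and protein. Cells hold L1 back at several points. Helicases and zinc finger proteins such as MOV10 and ZAP act on its RNA, nucleases such as TREX1 remove its DNA, and SAMHD1 limits reverse transcription. Poly(A) binding proteins, UPF1, G3BP1 and YBX1 are found in L1 RNPs as proteins. The present data measure the mRNAs that encode these proteins, not the proteins, and so show which of these mRNAs were themselves in the precipitate.

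Gene values were deposited as group means of normalized read counts, with IP normalized together with BO, with INPUT and with TOTAL in turn. Because the IP mean of a gene stands in each of the 3 comparisons under a different scaling, the whole reads of each IP library could be solved for, and they rebuilt the IP means of all 20981 genes. The IP libraries held 19754089 to 21387454 reads on genes. They are given below in 1 fixed order, without replicate numbers, since the means do not tell which is which. The BO, INPUT and TOTAL groups have a mean only. A spread between libraries could thus be computed for IP alone, and no test of a difference was made from these values. The authors' own tests were not used. A log2 ratio below is the log2 of (IP mean + 1) over (other mean + 1), and a gene counts as higher or lower when it passes 2-fold. Counting error of a ratio was bounded from the size of 1 read in each mean and is given as a 95% half-width, which covers counting only.

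Some facts about the libraries touch every result. The median gene was not at 0. Among the genes whose mean reached 10, its log2 ratio was 0.81 for IP to BO, 0.15 for IP to INPUT and -0.03 for IP to TOTAL, and ratios are set beside these values. In the repeat counts, which were given per library, one BO library stood apart with 52.1% of its repeat reads on large subunit rRNA, against 3.18% and 3.25% in the other BO libraries and 1.93% to 15.9% in the remaining groups. The BO mean of a gene includes that library and could not be computed without it. As a reference for the precipitate, L1 RNA was taken from the same comparisons. Summed over 6562 loci, L1Md_A, a young L1 subfamily, had a log2 ratio of 1.70 for IP to INPUT (1.41 to 1.94 over the IP libraries). For IP to BO it was 1.85. L1Md_T, over 9583 loci, had 1.75 and 1.70. The BO ratios stand beside 0.81 for the median gene.

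Each of the 10 mRNAs was detected in each group and passed the minimum mean of 10 in each comparison. Against BO, 5 of the 10 were at least 2-fold higher in IP (*Pabpc1*, *Ybx1*, *Upf1*, *G3bp1* and *Samhd1*), a group to set beside the 43.9% of the 13634 genes compared that were higher by this rule. None was 2-fold lower, where 11.2% of genes were. Against INPUT, 4 were higher (*Pabpc1*, *Ybx1*, *G3bp1* and *Upf1*) beside 20.5% of 14400 genes, and 0 were lower beside 14.6%. Against TOTAL, 4 were higher (*Upf1*, *Pabpc1*, *Adar* and *G3bp1*) beside 20.4% of 14666 genes, and 0 were lower beside 26.2%. The median of the 10 log2 ratios was 1.06 against BO, 0.09 against INPUT and 0.32 against TOTAL. Relative to the median gene these are 0.25, -0.06 and 0.35, so as a list the 10 lay close to the middle of all genes, while single members lay far from it.

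**Figure D1:**
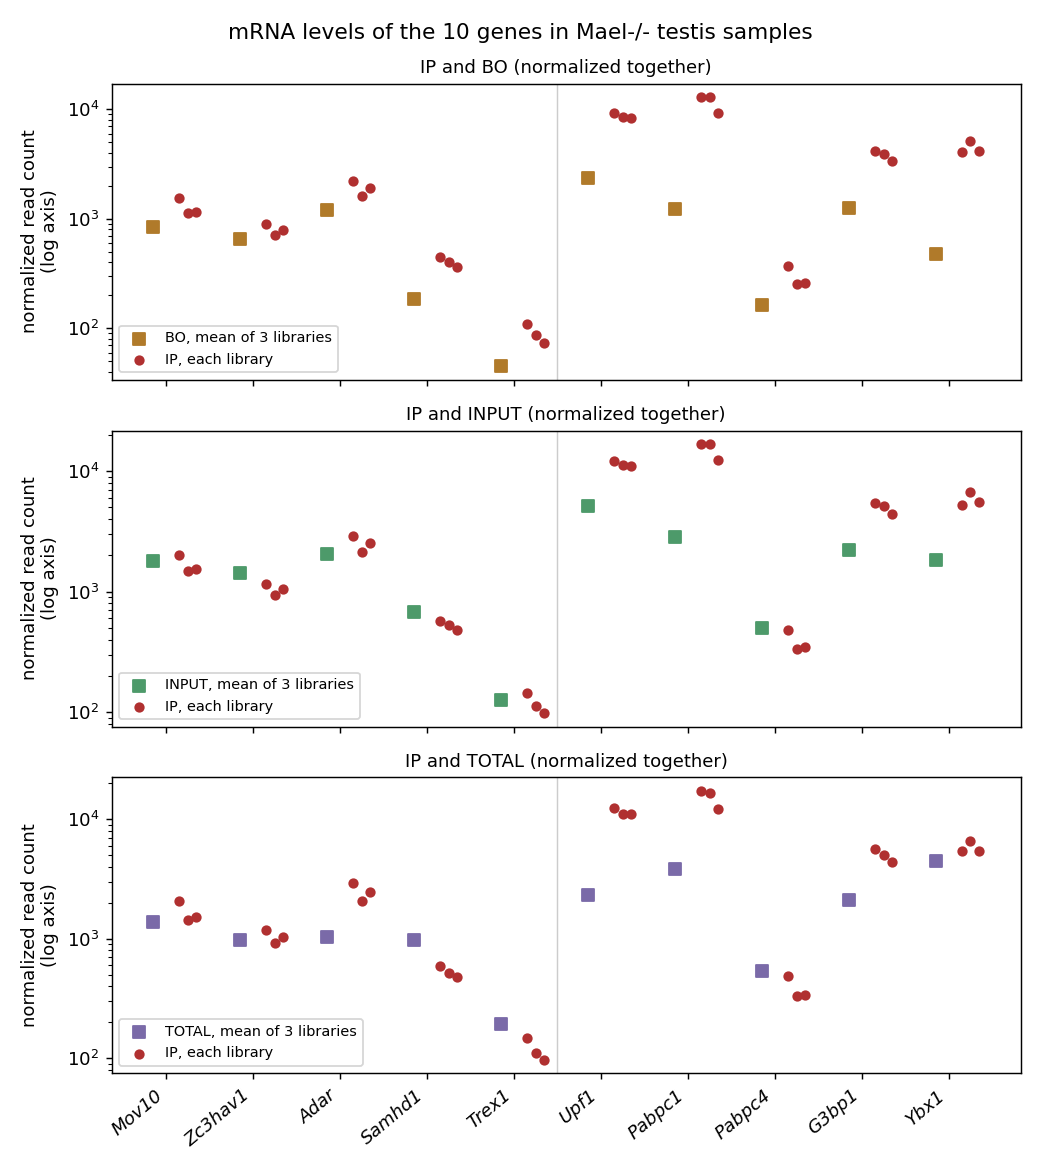
Normalized read counts (log axis) of the 10 mRNAs, with 1 panel for each pair of groups normalized together. Squares are the mean of 3 libraries of BO, INPUT or TOTAL, and red points the 3 IP libraries, with restriction factors left of the grey line and RNP partners right of it. *Pabpc1*, *Upf1*, *G3bp1*, *Ybx1* and *Adar* had all 3 IP libraries above the other mean in each panel.

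**Figure D2:**
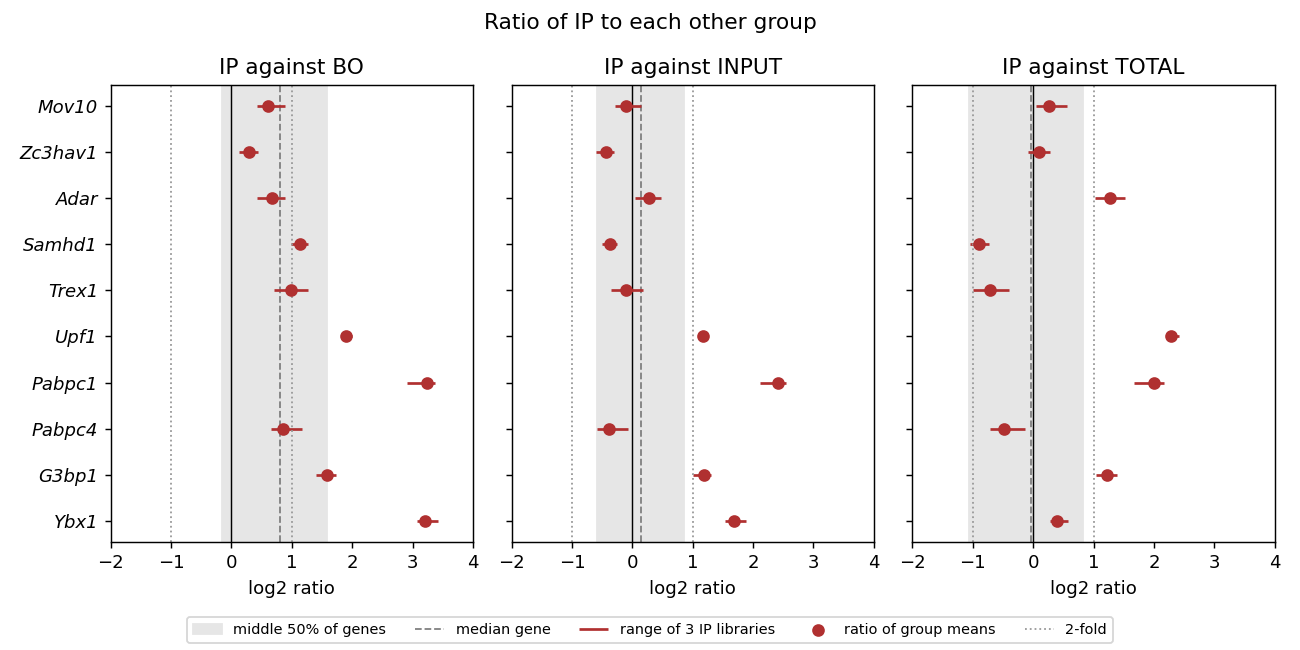
Log2 ratio of IP to BO, INPUT and TOTAL for each of the 10 genes. Red points are ratios of group means, red lines the range over the 3 IP libraries, the grey band the middle 50% of genes, the dashed line the median gene and the dotted lines 2-fold. *Upf1*, *Pabpc1*, *G3bp1* and *Ybx1* lay right of the band against INPUT, and *Zc3hav1* was the lowest of the 10 there.

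The mRNAs of the restriction factors are taken first, each with the position of its gene in mm10 (GENCODE M21). *Mov10* (chr3:104794836-104818563, minus strand) encodes an RNA helicase that lowers L1 retrotransposition and travels with L1 RNPs. Its normalized count was 1999, 1473 and 1540 in the IP libraries, against a mean of 1799 in INPUT. One IP library was above the INPUT mean and the others below it, and the log2 ratio was -0.11 ± 0.24 (SD over the 3 IP libraries) with a counting half-width of at most 0.06. Against TOTAL, with a mean of 1390.4, the ratio was 0.26, and against BO, with 836.1, it was 0.61, which is -0.20 relative to the median gene. *Mov10* was therefore near the median gene in each comparison.

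*Zc3hav1* (chr6:38305286-38354603, minus strand) encodes ZAP, a zinc finger protein that binds CpG-rich RNA and acts against viral and L1 RNA. It had 1159, 939 and 1054 normalized counts in the IP libraries and a mean of 1426 in INPUT. All 3 IP libraries were below the INPUT mean, and the log2 ratio of -0.44 ± 0.15 was the lowest of the 10. *Zc3hav1* was also lowest against BO, at 0.29, or -0.52 relative to the median gene. Against TOTAL the ratio was 0.10, and 2 of 3 IP libraries were above the TOTAL mean of 978.9.

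*Adar* (chr3:89715022-89753446, plus strand) encodes the enzyme that turns adenosine to inosine in double-stranded RNA. Its IP values of 2874, 2125 and 2521 were all above the INPUT mean of 2060.4, by a log2 ratio of 0.28 ± 0.22, which is 0.13 above the median gene, but the sign turned when the groups were scaled to the same sum over genes (-0.25) or upper quartile (-0.03). The largest difference for *Adar* was against TOTAL, where the mean was 1026 and the IP libraries held 2943, 2080.5 and 2477, a log2 ratio of 1.28 ± 0.25. It was 0.67 against BO, which is -0.14 relative to the median gene. *Chrnb2* lies on the opposite strand over 16.8% of the exon bases of *Adar*, and the libraries were stranded, but whether the counting used strand is not given in the sources used here.

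*Samhd1* (chr2:157097533-157135265, minus strand) encodes a phosphohydrolase that depletes the nucleotides needed for reverse transcription. It had 576.3, 529.5 and 483.8 counts in the IP libraries and a mean of 683.9 in INPUT, so that all 3 lay below it at a log2 ratio of -0.37 ± 0.13. The difference was larger against TOTAL, with a mean of 980.8, at -0.89 ± 0.16, the lowest ratio of the 10 in that comparison. Against BO, with a mean of 184, the ratio was 1.13, which is 0.32 relative to the median gene. With a counting half-width of at most 0.17, this ratio was within counting error of 2-fold.

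*Trex1* (chr9:109057933-109059734, minus strand) encodes the major 3′ DNA exonuclease of the cytosol and had the lowest normalized counts of the 10, not divided by length. Its 143.4, 113 and 98.3 counts in the IP libraries enclosed the INPUT mean of 126.4, and the log2 ratio was -0.10 ± 0.27 with a counting half-width of at most 0.22. It was -0.71 against TOTAL (mean of 194.1), with all IP libraries below that mean, and 0.98 against BO (mean of 45.2). All exon bases of *Trex1* lie within *Atrip*, a checkpoint gene on the same strand, and 93.0% of the 75 nt stretches of its transcript also occur in *Atrip* transcripts. Reads from the 2 genes could not be told apart there. *Atrip* itself had log2 ratios of 0.97 against INPUT, 1.25 against TOTAL and 1.75 against BO.

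Of these 5 restriction factor mRNAs, then, none was 2-fold higher or lower in IP than in INPUT. Their log2 ratios ran from -0.44 to 0.28. For *Zc3hav1* and *Samhd1* all IP libraries lay below the INPUT mean, for *Adar* all lay above, and for *Mov10* and *Trex1* they lay on both sides.

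The mRNAs of the RNP partners ranged more widely, from -0.38 to 2.42 against INPUT. *Pabpc1* (chr15:36595661-36609668, minus strand) encodes the main cytoplasmic poly(A) binding protein, which L1 RNPs carry on the L1 poly(A) tail. It had 16774, 16796 and 12396 counts in the IP libraries against an INPUT mean of 2866, a 5.34-fold difference (log2 ratio of 2.42 ± 0.25, counting half-width of at most 0.03). This was the highest ratio of the 10, at the 99.1 percentile of the genes compared. The lowest IP library was still 2.11 on the log2 scale above INPUT. *Pabpc1* was 9.42-fold above BO (mean of 1241), a log2 ratio of 3.24, or 2.43 relative to the median gene, and 4.0-fold above TOTAL (mean of 3814). Of the 75 nt stretches of its transcript, 11.2% occur in other annotated transcripts, most of them in the pseudogene *Gm16580*, which has no row of its own in the data.

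*Pabpc4* (chr4:123262351-123298925, plus strand) encodes a second cytoplasmic poly(A) binding protein, and its mRNA did not share this pattern. Its IP libraries had 478.1, 335.5 and 345.7 counts, all below the INPUT mean of 502, at a log2 ratio of -0.38 ± 0.28. All 3 were also below the TOTAL mean of 537.3 (log2 ratio of -0.48), and against BO it was 0.85, near the median gene. *Pabpc4* and *Pabpc1* thus differed by more than the whole range of their IP libraries in each comparison. For *Pabpc4*, 58.6% of the 75 nt stretches occur in another annotated transcript, chiefly *Gm10110*, so its count may hold only part of its reads.

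*Ybx1* (chr4:119277981-119294604, minus strand) encodes a cold shock domain protein that packages mRNA. The IP libraries held 5261, 6723 and 5502 counts, all above the INPUT mean of 1815, by 3.21-fold (log2 ratio of 1.68 ± 0.19). Against BO, with a mean of 481, it was 9.22-fold higher, at the 98.8 percentile and with a log2 ratio of 2.39 relative to the median gene. Against TOTAL, where it was abundant with a mean of 4426, the difference was only 1.31-fold, although all 3 IP libraries, at 5387, 6582 and 5406, were above that mean. Other transcripts, chiefly *Gm11560*, hold 13.3% of its 75 nt stretches.

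*Upf1* (chr8:70331525-70353278, minus strand) encodes the helicase at the centre of nonsense mediated decay. It had 12084, 11155 and 11112 counts in the IP libraries, the narrowest spread of the 10, against 5099.6 in INPUT. The log2 ratio was 1.17 ± 0.07, and 1.02 relative to the median gene. Against TOTAL, with a mean of 2329.9, *Upf1* was 4.89-fold higher in IP (log2 ratio of 2.29 ± 0.10), the highest of the 10 and the 97.6 percentile. It was 3.73-fold above BO (mean of 2339.5), with a log2 ratio of 1.09 relative to the median gene.

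*G3bp1* (chr11:55469685-55504838, plus strand) encodes a protein that nucleates stress granules. Its IP libraries had 5455, 5101 and 4446 counts against an INPUT mean of 2209, a 2.26-fold difference (log2 ratio of 1.18 ± 0.15). The ratio was close to this against TOTAL, at 1.23 with a mean of 2124, and it was 1.59 against BO with a mean of 1265, which is 0.78 relative to the median gene.

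The calls of *Upf1* and *G3bp1* against INPUT stood near 2-fold, and both fell under it when the groups were scaled to the same sum over genes (0.63 and 0.65) or the same upper quartile (0.86 and 0.87), whereas *Pabpc1* and *Ybx1* remained past it. Against BO, *G3bp1* and *Samhd1* fell under 2-fold when centred on the median gene, at 0.78 and 0.32. The scaling to the same sum also took *G3bp1* (0.71) and *Adar* (0.77) under 2-fold against TOTAL, put *Samhd1* (-1.41) and *Trex1* (-1.23) past it, and turned the sign for *Mov10* (-0.26), *Zc3hav1* (-0.42) and *Ybx1* (-0.13).

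Per kilobase of the longest annotated transcript, the order of the 10 changed between the extract and the precipitate. In TOTAL, *Ybx1* had the highest level, with a mean of 2718.7 normalized counts per kb, followed by *Pabpc1* with 1353.9, *Upf1* with 504.5, *Mov10* with 387.9, *G3bp1* with 316.9 and *Samhd1* with 249.8. *Zc3hav1* with 198, *Trex1* with 179.1, *Adar* with 173.7 and *Pabpc4* with 172.7 stood close together, and the last 3 were within their counting errors, which were at most 3.49% to 8.03%. In IP, scaled with INPUT, *Pabpc1* was first with 5439 (4400.5 to 5962.5 over the libraries), ahead of *Ybx1* with 3580.2 (3231 to 4129.5) and *Upf1* with 2479.5 (2406 to 2617), and these ranges did not overlap. *G3bp1* followed with 746 (663.3 to 813.7). *Mov10* with 466.2 and *Adar* with 424.2 overlapped, *Zc3hav1* stood alone with 212.5, and *Samhd1* with 135, *Pabpc4* with 124.2 and *Trex1* with 109.1 overlapped in their library ranges. The places of *Trex1* and *Pabpc4* are less certain in both orders, since 93.0% and 58.6% of their 75 nt stretches occur in other transcripts.

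The comparison with TOTAL joins the gradient and the precipitation. Since both the INPUT and the TOTAL comparison contain the same IP libraries, the ratio of INPUT to TOTAL was taken as the difference of the 2 log2 ratios, across groups that were normalized separately. Its median over 14400 genes was -0.13. *Upf1* and *Adar* were higher in the gradient fractions than in the extract, with log2 ratios of 1.12 and 1.0, and *Zc3hav1* and *Mov10* had 0.54 and 0.37. *G3bp1*, at 0.05, and *Pabpc4*, at -0.10, were near the median. *Pabpc1* with -0.42, *Samhd1* with -0.52 and *Trex1* with -0.62 were within 2-fold, and *Ybx1* was lowest with -1.29.

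These values place the members apart on the 2 steps. *Ybx1* mRNA was lower in INPUT than in TOTAL and higher again in IP, so its IP to TOTAL ratio of 0.39 was the sum of -1.29 and 1.68. *Upf1* was past 2-fold at each step, with 1.12 and 1.17. For *Adar*, the INPUT to TOTAL ratio made up 1.0 of the 1.28 between IP and TOTAL. For *Pabpc1* and *G3bp1* the IP to INPUT ratio was the larger part, at 2.42 and 1.18. That ratio holds what beads retain as well as what the antibody bound, and these were not separated. *Samhd1* had -0.52 and -0.37, neither past 2-fold.

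**Figure D3:**
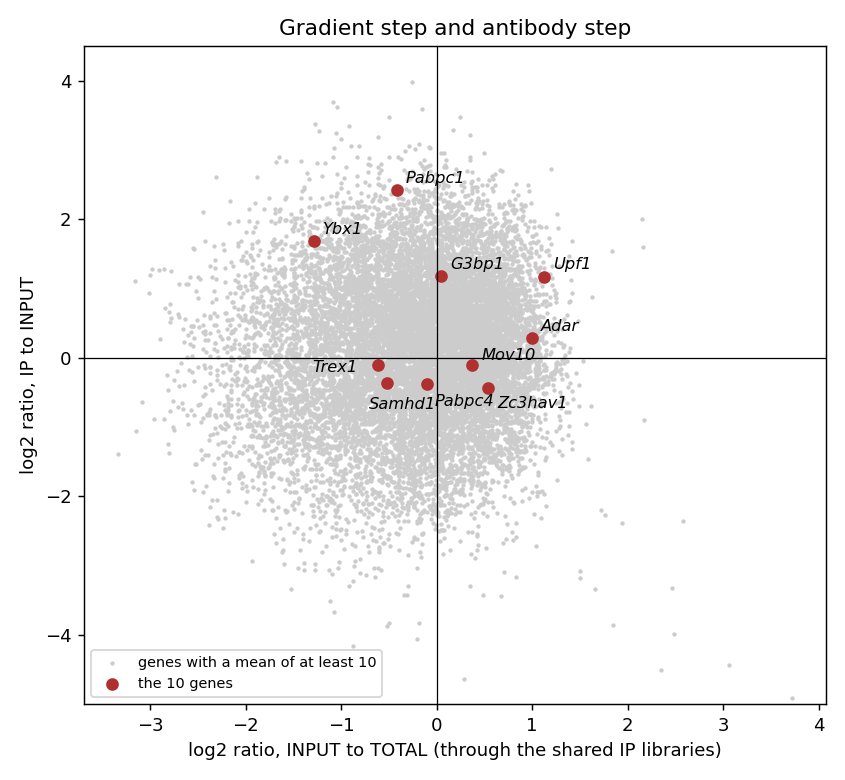
Log2 ratio of IP to INPUT (vertical axis) against log2 ratio of INPUT to TOTAL (horizontal axis). Red points are the 10 genes and grey points the genes with a mean of at least 10, of which 1 with an IP to INPUT ratio below -5 is not drawn. *Upf1* lies at 1.12 and 1.17, *Ybx1* at -1.29 and 1.68, and *Adar* at 1.0 and 0.28.

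What bare beads retained was compared with INPUT in the same way. The log2 ratio of BO to INPUT ran from -0.38 for *Adar* to -1.52 for *Ybx1*, where the median gene had -0.59. *G3bp1*, at -0.41, was with *Adar* above the median gene. *Samhd1* with -1.50, *Pabpc4* with -1.22 and *Trex1* with -1.08 were below it. In these 3 the IP mean was also below the INPUT mean, within 2-fold, and against BO only *Samhd1* passed 2-fold.

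Paralogues of the members gave a further contrast. *Pabpc6* is a gene close to *Pabpc1*, with 83.3% of 1893 aligned coding bases identical, while *Pabpc4* has 71.7% of 1878 in common with *Pabpc1*. *G3bp1* and *G3bp2* share 68.0% of 1266 aligned coding bases. The first 30 coding bases of these mRNAs, from GENCODE M21 transcripts (mm10, chromosomes 15, 17, 4, 11 and 5), show how the related transcripts differ where reads can separate them. Capitals mark bases that differ from the first line of each family, 4 in *Pabpc6*, 7 in *Pabpc4* and 3 in *G3bp2*.
Pabpc1: atgaaccccagcgcccccagctaccccatg
Pabpc6: atgaaccccagcgAccccagctacTcTTtg
Pabpc4: atgaacGcTGCAgccAGcagctaccccatg
G3bp1: atggttatggagaagcctagtcccctgctg
G3bp2: atggttatggagaagccCagtccGctgctT

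*Pabpc6* was measured at 693.3, 741.3 and 605 counts in the IP libraries and a mean of 134.3 in INPUT, a log2 ratio of 2.33 ± 0.15 near the 2.42 of *Pabpc1*. None of its 75 nt stretches occurs in another annotated transcript. *G3bp2* went the other way from *G3bp1*: its 5647, 4438 and 4002 counts in the IP libraries all lay below the INPUT mean of 6897, at -0.55 ± 0.26, and below the TOTAL mean of 7702, at -0.72. *Mov10l1*, the germ cell relative of *Mov10* that acts in piRNA production, had 24505, 22560 and 19959 counts against 4884 in INPUT. Its log2 ratio was 2.19 ± 0.15 against INPUT and 3.12 against TOTAL, where *Mov10* had -0.11 and 0.26.

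*Parp12*, a relative of *Zc3hav1* with the same kind of zinc fingers, had a log2 ratio of 1.51 ± 0.08 against INPUT, with 12026, 11625 and 10793 counts in IP and 4018 in INPUT. Among the relatives of *Adar*, the testis gene *Adad1* had 2.49 ± 0.14 and the editing enzyme *Adarb1* had 0.90 ± 0.05, whereas *Adad2* had -0.34. *Ybx3* had 1.13 ± 0.16 and the germ cell gene *Ybx2* 0.50 ± 0.07, both under the 1.68 of *Ybx1*, and against TOTAL *Ybx2* was at 1.10 and *Ybx3* at -0.13. *Pabpc2* had 0.05 against INPUT with means of 12.6 in IP and 12.1 in INPUT, and *Pabpc1l*, *Adarb2* and *Trex2* had means below 10 in the INPUT comparison. Of the 10 listed paralogues with a mean of at least 10, then, 5 were 2-fold higher in IP than in INPUT and 0 were lower, with a median of 1.01, where 20.5% and 14.6% of all genes were. *Pabpc4l*, a further poly(A) binding relative that stood in another list, was 2-fold lower, at -1.10 with means of 38.7 in IP and 84.3 in INPUT. Against TOTAL 6 of 10 listed paralogues were higher and 1 was lower (*Pabpc2*, at -1.43), where 20.4% and 26.2% of all genes were. Against BO 7 of 9 were higher and 0 lower, where 43.9% and 11.2% of all genes were.

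**Figure D4:**
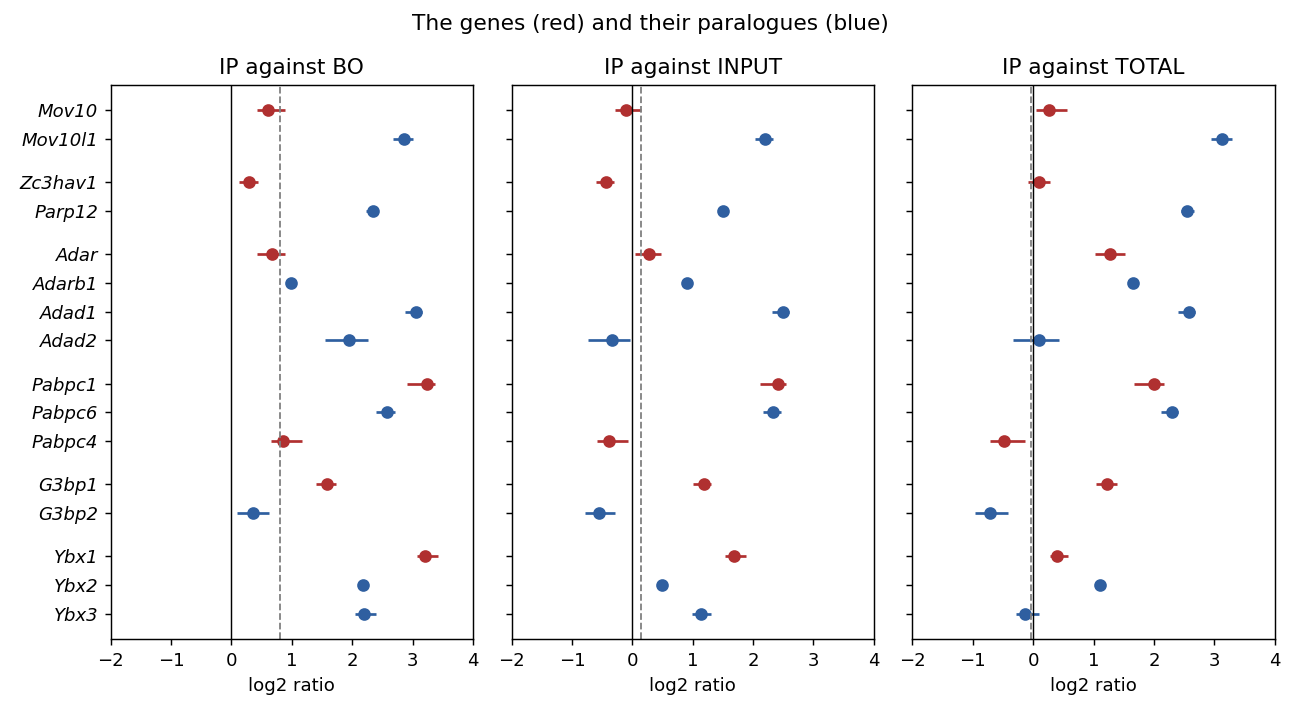
Log2 ratio of IP to BO, INPUT and TOTAL for the genes (red) and paralogues with enough reads (blue), grouped by family. *Pabpc2*, which passed the minimum mean against INPUT and TOTAL and had -1.43 against TOTAL, is not drawn. Points are ratios of group means, lines the range over the 3 IP libraries and the dashed line the median gene. In the *Mov10* and *Zc3hav1* families the paralogue lies above the gene in each comparison, and in the *G3bp1* family below it.

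The pathways around the members were described by lists of genes chosen by function, each with the count past 2-fold and its median, without a test. They are read beside the shares of all genes, 20.5% higher and 14.6% lower against INPUT, 43.9% and 11.2% against BO, and 20.4% and 26.2% against TOTAL. In nonsense mediated decay, 4 of 13 genes beside *Upf1* were 2-fold higher in IP than in INPUT and 0 lower, with a median log2 ratio of 0.73 (0.58 above the median gene). Against TOTAL 8 of 13 were higher, beside 20.4% of all genes, with a median of 1.17. Against BO 7 of 13 were higher and 0 lower, with a median 0.23 above the median gene. *Smg9* (1.68) and *Rnps1* (1.31) were highest against INPUT. *Upf3b*, an adaptor between UPF2 and the exon junction complex, was lowest at -0.51, followed by the kinase *Smg1* at 0.15.

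Among 30 genes for RNA granule proteins and other ORF1p partners, 12 were higher and 1 was lower against INPUT, with a median of 0.82. *Fxr1* (1.97) and *Igf2bp3* (1.82) led, both for RNA-binding proteins of the cytoplasm, and *Purb* (-1.11) and *Igf2bp2* (-0.98) were last. Against TOTAL 16 of the 30 were higher and 1 was lower (median of 1.09), and against BO 15 were higher and 4 lower, with a median 0.16 above the median gene. Of the 11 genes for poly(A) binding proteins and their partners with enough reads, 5 were higher and 1 was lower, with a median of 0.67. *Pabpc6* (2.33) and the cap-binding *Eif4e* (1.78) were highest, and *Pabpc4l* (-1.10) and the nuclear *Pabpn1* (-0.34) lowest. Against TOTAL 4 were higher and 2 lower (median of 0.80), and against BO 5 were higher and 2 lower, also with a median 0.16 above the median gene. Of the 2 lower than BO, *Pabpc5* reached the minimum mean only through BO. For deadenylation 6 of 16 genes were higher and 0 lower, with a median of 0.87, from *Cnot2* (1.90) and *Tob1* (1.40) down to *Cnot6* (0.02) and *Pan3* (-0.01). Against BO 6 were higher and 1 was lower (*Cnot6*, at -1.43), *Tob1* had -0.19, and the median of 0.56 was -0.25 relative to the median gene. Against TOTAL 3 of the 16 were higher, a share near the 20.4% of all genes, and 0 lower, with a median of 0.54.

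Of 17 other genes in the list of restriction factors with enough reads, 1 was higher (*Mov10l1*) and 4 were lower in IP than in INPUT, with a median of 0.05. The list held *Atrip*, which is no restriction factor, for its overlap with *Trex1*. The lowest were *Bst2*, which tethers budding viruses, at -1.91, and the RNA editing enzyme *Apobec1* at -1.13, and after *Mov10l1* came *Atrip* at 0.97. Against TOTAL 3 of 18 were higher (*Mov10l1*, *Adarb1* and *Atrip*) and 5 lower, shares near the 20.4% and 26.2% of all genes, with a median of -0.51 (-0.11 without *Isg20*, which passed the minimum only through TOTAL), and against BO 7 of 17 were higher and 2 lower.

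**Figure D5:**
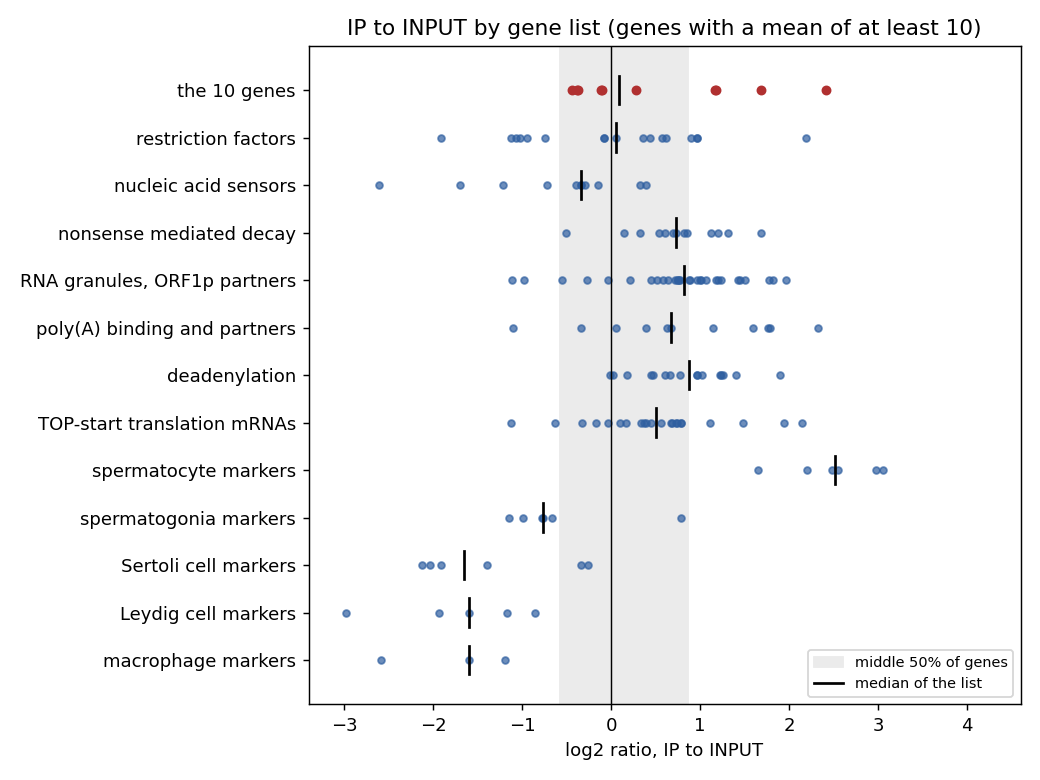
Log2 ratio of IP to INPUT (horizontal axis) for the 10 genes (red), the pathway lists and some cell type markers (blue), 1 point per gene with a mean of at least 10. Markers of spermatids and of peritubular and vessel cells are not drawn. Black bars are list medians and the grey band the middle 50% of genes. Spermatocyte markers had a median of 2.52 and Leydig cell markers of -1.60, and the 10 genes lie between them.

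Markers of testis cell types differed between the same groups. IP, BO and INPUT were all taken from the TOTAL extracts, so these are differences between fractions of the same cells' RNA, while within an extract fewer cells of a type and less RNA per cell cannot be told apart. The counts against INPUT are read beside 20.5% of all genes higher and 14.6% lower. All 6 spermatocyte markers (*Sycp1*, *Sycp3*, *Hormad1*, *Spo11*, *Meiob* and *Hspa2*) were 2-fold higher in IP than in INPUT, with log2 ratios of 1.65 to 3.06 and a summed mean of 134041 in IP and 21594.5 in INPUT. Leydig cell markers were lower for 4 of 5 genes (median of -1.60, summed mean of 15260.2 in IP and 42334 in INPUT), Sertoli cell markers for 4 of 6 (median of -1.65), and macrophage markers for 3 of 3 (median of -1.60). Of the spermatogonia markers 1 of 6 was lower, a share near the 14.6% of all genes (median of -0.77). Of the peritubular and vessel cell markers 1 of 4 was lower (median of -0.34). Of the 6 round spermatid markers 4 had enough reads, and 3 of these were higher (median of 1.35). *Acrv1*, with means of 9.9 in INPUT and 0.751 in IP, and *Acr*, with 5.92 and 7.88, were under the minimum. The former was lower in IP. No elongating spermatid marker reached a mean of 10 in the INPUT comparison. Against TOTAL, all 6 spermatocyte markers were again higher and all 5 Leydig cell markers lower, where 20.4% and 26.2% of all genes were. Against BO all 6 spermatocyte markers were higher too, with a median of 3.34 (2.53 relative to the median gene). No Leydig cell or macrophage marker was lower, where 11.2% of all genes were. Of the Leydig cell markers 2 of 5 were higher, a share near the 43.9% of all genes. Their median of 0.48 was -0.33 relative to the median gene. Of the Sertoli cell markers 3 of 6 were lower, with a median of -0.71 (-1.52 relative to the median gene). Of the macrophage markers, *Csf1r* was 2-fold higher at 1.14 (0.33 relative to the median gene). *Cd68* at 1.32 reached the minimum mean only through IP. The part of cell type in the ratios of the 10 genes was not tested. *Actb*, which is transcribed in most cells, had -0.06 against INPUT and -1.36 against TOTAL.

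The GC content of the 10 transcripts ran from 46.4% to 57.9%, with a median of 52.3% where the genes compared had 50.1%. The observed to expected ratio of CpG had a median of 0.503 against 0.41, and was highest for *Ybx1* (0.868) and *Pabpc1* (0.717), the members with the highest ratios against INPUT, and lowest for *Trex1* (0.267) and *Adar* (0.301). *Upf1* and *Pabpc4* had 0.62 and 0.592. *G3bp1*, also 2-fold higher in IP than in INPUT, had 0.368, below the 0.41 of the genes compared. The longest transcript was that of *G3bp1*, with 6703 nt, of which 5173 nt are 3′ UTR, and *Ybx1* had 1628 nt. A relation of length or CpG content to the ratios was not tested.

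Genes with the most similar pattern were sought over the 3 log2 ratios among 8005 genes with a mean of at least 100 in each group. For *Pabpc1* these were *Cbwd1*, at a Euclidean distance of 0.142, *9230110C19Rik* at 0.184 and *Taf9b* at 0.188. For *Zc3hav1* they were *Serinc5* at 0.0302, *Cbx6* at 0.0728 and *Cc2d2a* at 0.12.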

How the data were processed

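The 3 libraries each of TOTAL, INPUT, BO and IP were stranded, rRNA-depleted 75 nt single-end RNA-seq. Per the methods and the submitters' processing notes, the authors aligned the reads with STAR 2.6.0c to the mm10 genome and normalized counts with DESeq2 1.24.0. The annotation used for counting is not given in the sources used here. Since BO, INPUT and TOTAL have no value per library, the count tests foreseen could not be run. The deposited signal is each group's mean normalized count per gene, in 3 tables normalized separately. Their fold change, standard error, statistic and p-value columns hold the authors' own tests and were not used. The repeat table, per the file headers a normalized signal per subfamily and library, served only for shares within a library.

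Reads of the 3 IP libraries were solved from the 3 IP means, and rebuilt 100% of gene means within 0.002. Gene reads summed over 3 libraries lay between 29291266 and 61523915 in BO, 49448302 and 66674145 in INPUT, and 50240177 and 78365061 in TOTAL. Rows that name no gene took 22.1% of IP reads and 30.5% to 38.6% of the others, and were left out. Ratios used a pseudocount of 1, a mean of at least 10 over both groups and 2-fold as the threshold, in Python 3.11.15 with numpy 2.4.6 and pandas 2.3.3. In a simulated IP to INPUT comparison of 20981 genes, 96.5% of 200 genes changed 3-fold were called, with 2 unchanged ones. The simulated reads had counting error only, without spread between libraries or a shift in scaling. They check the steps of the calculation and give no error rate for the calls in the real data. Alternatives were 3 scalings, pseudocounts of 0.1 and 10, 1.5-fold, no filter, a mean of at least 100, and each IP library left out. Genes named are the 10, their paralogues, *Actb*, *Atrip*, the 2 highest and 2 lowest of each pathway list against INPUT, the spermatocyte markers, and the 3 nearest patterns of the highest and lowest member. *Prkra*, *Zbp1*, *Oas1a*, *Cd68*, *Csf1r*, *Acrv1*, *Acr* and single list genes named for a comparison with BO or TOTAL were named after their values were seen. GENCODE M21 gave transcripts for 19888 of 20981 genes. The members and lists were chosen with earlier results of these data known.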

Additional observations from a re-analysis of the deposited data

How the results depend on the processing

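Centred on the median gene or scaled to the upper quartile over genes, 3 of the 10 genes instead of 5 were 2-fold higher in IP than in BO, with a median of 0.25 in both, where 18.3% and 18.5% of all genes were higher, and scaled to the sum over genes the median was 0.77. Against INPUT, 2 instead of 4 were higher under the sum and the upper quartile, with medians of -0.44 and -0.22, where 9.1% and 12.9% of all genes were. Against TOTAL, the sum left 2 higher and put 2 lower (*Samhd1* and *Trex1*), with a median of -0.19, where 9.77% of all genes were higher and 37.9% lower. With 1.5-fold as the threshold, 9 were higher against BO and 2 lower against TOTAL, where 56.8% and 35.6% of all genes were. Pseudocounts and filters moved none of these counts by more than 1.5 times. Leaving out 1 IP library gave 5 to 6 higher, 0 lower and a median of 0.94 to 1.15 against BO, 4 higher, 0 lower and -0.04 to 0.18 against INPUT, and 4 higher, 0 lower and 0.26 to 0.38 against TOTAL. *Trex1* crossed 2-fold against BO in 2 of these settings. No paired analysis was possible because the BO, INPUT and TOTAL values are group means. For the same reason no library of these groups could be left out and the outlying BO library stays in its mean. Counting error was widest against BO, with half-widths of up to 0.34 for *Trex1*, 0.18 for *Pabpc4* and 0.17 for *Samhd1*, so that 2-fold lay within it for *Trex1*, *Pabpc4* and *Samhd1*.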

Other observations

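Genes for sensors of foreign nucleic acids, which work beside the restriction factors, were described in the same way, without a test. Some passed the minimum mean only through the group where they were high, which fixed their direction, so a mean of at least 10 in both groups was asked for here, a choice made after the data were seen. Of 10 such genes, 0 were 2-fold higher and 2 lower in IP than in INPUT, where 20.0% and 13.4% of all genes were, with a median log2 ratio of -0.34. Against TOTAL 0 of 10 were higher and 5 lower, where 20.5% and 23.6% of all genes were, with a median of -0.75, and against BO 2 of 9 were higher and 2 lower, where 42.7% and 10.7% of all genes were. Under the minimum used elsewhere, 3 of 11 were lower than INPUT and 7 of 12 lower than TOTAL, with *Oas2* added in the former and *Zbp1* and *Oas1a* in the latter. *Oas2*, which makes the activator of RNase L, had -2.61 at means of 22 in INPUT and 2.78 in IP, with a counting half-width of 1.15, and the receptor *Tlr3* had -1.70 at 140 and 42.5. The highest were *Mb21d1*, the gene of the DNA sensor cGAS, at 0.39 with a counting half-width of 0.41, and *Tarbp2*, a partner of Dicer, at 0.33 ± 0.74. The *Tarbp2* libraries, at 196.3, 116.6 and 69.5 in IP, lay on both sides of the INPUT mean of 101.2. *Prkra*, whose protein activates the kinase PKR and which was named after its values were seen, had -0.34 against INPUT and -1.42 against TOTAL.

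*Pabpc1* mRNA belongs to the transcripts that start with a pyrimidine tract and are translated under control of mTOR. Of 22 other such mRNAs for translation factors, ribosomal proteins and related proteins, 21 were 2-fold higher in IP than in BO, with a median of 2.45 (43.9% of all genes were), 4 were higher than in INPUT, a share near the 20.5% of all genes (median of 0.50), and 13 were 2-fold lower than in TOTAL (median of -1.09, beside 26.2% of all genes). *Npm1* had 2.14 against INPUT and *Nap1l1* 1.94, while *Hnrnpa1* had -1.12, at means of only 37.1 in IP and 81.9 in INPUT, and *Eef1d* had -0.63. Stretches shared with other transcripts were not examined for these 22 mRNAs. *Pabpc1*, at 2.42 against INPUT and 2.00 against TOTAL, had a higher ratio than each of the 22 in both of these comparisons.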
